A study of Homo sapiens with 6 samples.

Results

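The nuclear genes that encode subunits of the mitochondrial respiratory chain and of the ATP synthase were followed in Ls174t, an established cell line from a human colorectal adenocarcinoma, with 6 libraries. The genes were taken from the deposited table by Entrez identifier and symbol: symbols starting NDUFA, NDUFB, NDUFC, NDUFS or NDUFV for complex I, UQCR together with CYC1 for complex III, COX4I, COX5, COX6, COX7 or COX8 for complex IV, and ATP5 for the ATP synthase. Assembly factors (NDUFAF), the ATP synthase inhibitor (ATP5IF), complex II and the NDUFA4 genes, now named COXFA4 and COXFA4L2, were left out by this rule. It found 84 of 19484 gene rows, 38 for complex I, 10 for complex III, 17 for complex IV and 19 for the ATP synthase. Of these, 77 passed a filter on low values (a 6-library mean of 1 FPKM or more) and were tested, 4 lay below it and 3 had no value.

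The control cultures carried the vector and the other cultures were a stable Ls174t line overexpressing RNF186, a ubiquitin ligase with a RING domain found in intestinal epithelium. All 6 cultures were labelled untreated and stood for 48 h in dishes of 6 cm (DMEM medium, 10% FBS, 1% antibiotics). Each group is 3 dishes split from 1 line, so the p-values rest on dish-to-dish spread and do not cover independently made lines, and other differences between the 2 lines cannot be told apart from RNF186 itself. FPKM, the deposited unit, counts sequenced fragments relative to gene length and library size.

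The respiratory chain of the inner mitochondrial membrane passes electrons from NADH and succinate to oxygen and pumps protons, and the ATP synthase uses the proton gradient to make ATP. Complex I oxidises NADH, complex III passes electrons from ubiquinol to cytochrome c, and complex IV reduces oxygen to water. Most subunits are encoded in the nucleus and imported, and the rest are encoded by mitochondrial DNA. Nuclear respiratory genes are textbook targets of the transcription factors NRF1, GABP, YY1 and the oestrogen-related receptors. In the colon, absorptive cells are known for high oxidative metabolism with butyrate as a fuel.

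RNF186 (Entrez 54546) was at 0.69, 0.71 and 0.61 FPKM in vector replicates 1, 2 and 3 and at 452, 577 and 485 FPKM in the RNF186 replicates, as the labels say. Summed FPKM was 412391, 401964 and 398674 in vector replicates 1, 2 and 3 and 387478, 396200 and 388419 in the RNF186 replicates. Every RNF186 total thus lay below every vector total. FPKM were tested without rescaling to these totals, and counts with TPM scaling are given below. The depth of the libraries is unknown. All 12 markers of colorectal epithelium had a mean of at least 1 FPKM, with a summed level of 7139 to 7800 FPKM in vector and 5695 to 6228 FPKM in RNF186 libraries. They went both ways: KRT8 (3497 to 3842 FPKM in vector, 2604 to 3012 FPKM with RNF186), KRT18, KRT19, LGALS4, CDH17 and VIL1 were lower in every RNF186 library than in any vector library, and EPCAM (505 to 527 FPKM in vector, 549 to 624 FPKM with RNF186), CDH1 and CDX2 were higher. Their part in the results was not tested. The protocol text in the labels speaks of retinas, but the photoreceptor gene RCVRN had no value, and the retinal markers summed to 2.99 to 3.48 FPKM. Most of that sum was PDE6A at 1.3 to 1.67 FPKM and CRX at 0.6 to 1.14 FPKM, which both passed the filter. Fibroblast markers summed to at most 0.14 FPKM, endothelial markers to at most 0.51 FPKM, and 7 leukocyte markers to 19.5 to 23.7 FPKM, most of it LYZ at 14.7 to 19.4 FPKM. On the principal component with 10.1% of the variance the score of RNF186 replicate 2 was 12.09, while all others ran from -5.59 to 4.64. Calls that appeared only without that library are given beside each complex.

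Promoter windows of 300 bases, from 250 before to 50 after the annotated start, were on hand for 67 of the 84 genes in the RefSeq table of build GRCh38.p14. The windows below belong to the gene with the largest fall among the complex I, complex III and ATP synthase genes with 1 window each, and to the gene with the largest rise on the same terms, because these genes moved in opposite directions while belonging to 1 pathway. Capitals mark CCGGAAG (core of the ETS factors, such as GABP), GCATGCG (core of NRF1) and AAGATGG (core of YY1) on either strand.
NDUFS7: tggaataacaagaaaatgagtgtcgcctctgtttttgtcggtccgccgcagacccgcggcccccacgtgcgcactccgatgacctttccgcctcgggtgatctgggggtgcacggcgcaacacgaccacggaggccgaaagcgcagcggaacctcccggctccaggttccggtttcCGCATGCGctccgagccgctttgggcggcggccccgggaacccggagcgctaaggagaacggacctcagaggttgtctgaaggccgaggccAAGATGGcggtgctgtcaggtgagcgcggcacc
UQCR11: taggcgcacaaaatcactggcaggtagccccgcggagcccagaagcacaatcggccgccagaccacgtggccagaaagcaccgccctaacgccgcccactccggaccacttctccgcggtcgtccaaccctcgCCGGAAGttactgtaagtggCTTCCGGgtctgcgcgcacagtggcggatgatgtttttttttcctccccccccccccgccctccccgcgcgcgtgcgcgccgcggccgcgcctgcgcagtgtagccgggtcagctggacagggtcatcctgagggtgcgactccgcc
ATP5MJ: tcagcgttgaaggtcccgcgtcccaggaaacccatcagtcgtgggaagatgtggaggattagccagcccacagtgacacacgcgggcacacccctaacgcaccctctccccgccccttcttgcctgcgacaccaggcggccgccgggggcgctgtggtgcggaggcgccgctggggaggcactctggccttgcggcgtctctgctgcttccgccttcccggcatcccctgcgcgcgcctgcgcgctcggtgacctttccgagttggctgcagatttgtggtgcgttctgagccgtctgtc
NDUFA12: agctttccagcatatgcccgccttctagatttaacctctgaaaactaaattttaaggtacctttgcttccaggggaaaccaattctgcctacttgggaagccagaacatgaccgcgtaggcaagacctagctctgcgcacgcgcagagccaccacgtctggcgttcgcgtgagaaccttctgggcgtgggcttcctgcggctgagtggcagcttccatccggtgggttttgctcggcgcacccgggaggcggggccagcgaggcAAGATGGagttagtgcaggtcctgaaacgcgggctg
They lie at chr19:1383657-1383956 (plus strand), chr19:1605413-1605712 (minus strand), chr14:103921480-103921779 (minus strand) and chr12:95003648-95003947 (minus strand). The window of NDUFS7, which fell, held the NRF1 core on both strands in 1 palindromic stretch from 74 bases before the start, and the YY1 core from base 18 after it. UQCR11, which fell, held the ETS core once on each strand, from 117 and from 97 bases before the start. ATP5MJ, which fell, held none of the 3 cores, and NDUFA12, which rose, held the YY1 core from base 15 after the start. The core AAGGTCA of the oestrogen-related receptors, not marked here, was in the windows of NDUFS7 and ATP5MJ. Those of UQCR11 and NDUFA12 did not hold it.

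The 3 cores were common in these windows whether or not the gene changed. At least 1 of them was in 50% of the 80 windows of the subunit genes, in 18.3% of all 35093 windows and in 27.6% of the 13950 windows of tested genes. The ETS core was in 25% of the subunit windows (17.8% of the windows of tested genes, 10.3% of all), the YY1 core in 22.5% (7.32% of tested, 5.84% of all) and the NRF1 core in 16.3% (5.81% of tested, 3.91% of all). The core AAGGTCA of the oestrogen-related receptors was in 12.5% (2.82% of tested, 3.92% of all). GGGCGG, the core of SP1, was in 62.5%, below the 66% of tested genes and above the 45% of all windows. Each was searched on both strands, cores may overlap each other, and some genes have several overlapping windows. Of the 24 windows of genes that fell, 41.7% held an ETS, NRF1 or YY1 core, and of the 48 windows of tested genes that did not pass the test, 56.3% did. A match describes letters only, and no binding was measured.

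Levels ranged over more than an order of magnitude among the subunits. On the FPKM scale, which is per gene length, the median of the tested genes' mean levels was 58 in complex I, 65.1 in complex III, 189 in complex IV and 127 in the ATP synthase, against 12.9 over all tested genes. The highest was ATP5F1B, the catalytic beta subunit of the ATP synthase. It was at 608, 573 and 570 FPKM in vector and 544, 566 and 537 FPKM in RNF186 libraries. COX7C (mean 441 FPKM), ATP5F1A (the alpha subunit of the same head), COX4I1 and UQCRH followed. In complex I NDUFS5 was the highest at a mean of 224 FPKM, and NDUFC2-KCTD14, a readthrough transcript that overlaps NDUFC2, the lowest at 11.5 FPKM. Among tissue-specific isoforms, COX4I2, COX6A2 and COX8C had no value, COX7A1 and COX7B2 had means of 0.142 and 0.22 FPKM, and the testis isoform COX6B2 had 1.22 FPKM. Its 6 values were 0.95, 1.57 and 1.25 FPKM in vector and 1.08, 1.64 and 0.82 FPKM in RNF186 libraries, with overlap.

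**Figure D1:**
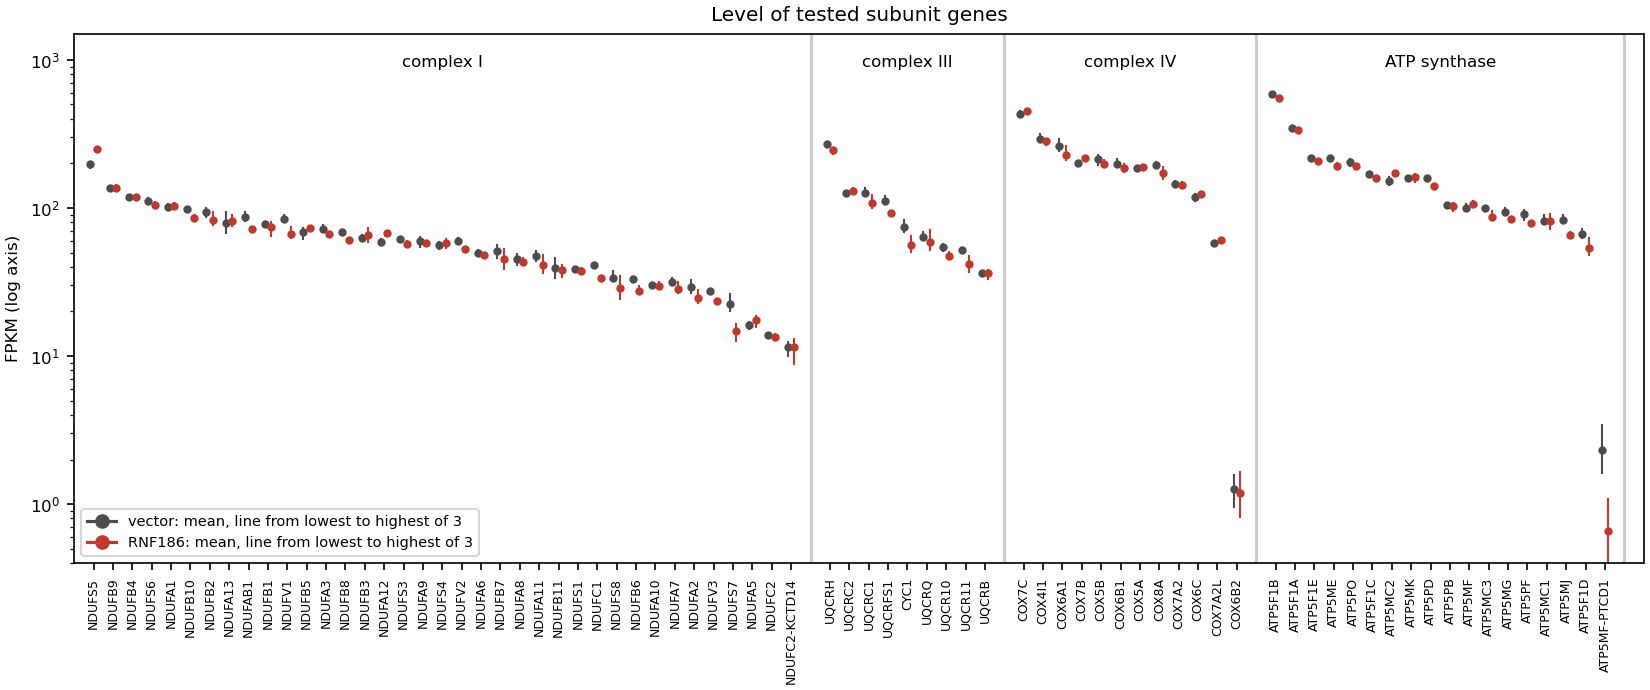
FPKM (log axis) of tested subunit genes by complex, in order of mean level, with a point for the mean of 3 dishes and a line from the lowest to the highest. Vector and RNF186 points lie close together for most genes; the RNF186 line of ATP5MF-PTCD1 reaches a listed 0 that a log axis cannot show.

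With RNF186, 23 of the 77 tested subunit genes fell, 4 rose and 50 did not pass the test (limma on log2(FPKM + 1), Benjamini-Hochberg adjusted p under 0.05 over all 11632 tested genes). That is 29.9% lower and 5.19% higher, against 18.9% lower and 19.9% higher over all tested genes, of which 38.8% were called in either direction. The median change was -0.08 on the log2(FPKM + 1) scale, against 0.00 over all tested genes, and the changes ran from -1.03 to 0.32. The readthrough genes NDUFC2-KCTD14 and ATP5MF-PTCD1 are counted here. Without them 22 of 75 genes fell (29.3%), 4 rose, and the changes ran from -0.57 to 0.32. All 3 RNF186 libraries lay below all 3 vector libraries for 27 subunit genes (23.8% of all tested genes) and above them for 4 (25.7% of all). By complex, 5 of 9 tested genes of complex III fell (55.6%), 8 of 18 of the ATP synthase (44.4%), 9 of 38 of complex I (23.7%) and 1 of 12 of complex IV (8.33%). Differences between complexes were not tested. In bulk RNA, fewer cells of a type and less RNA per cell cannot be told apart.

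**Figure D2:**
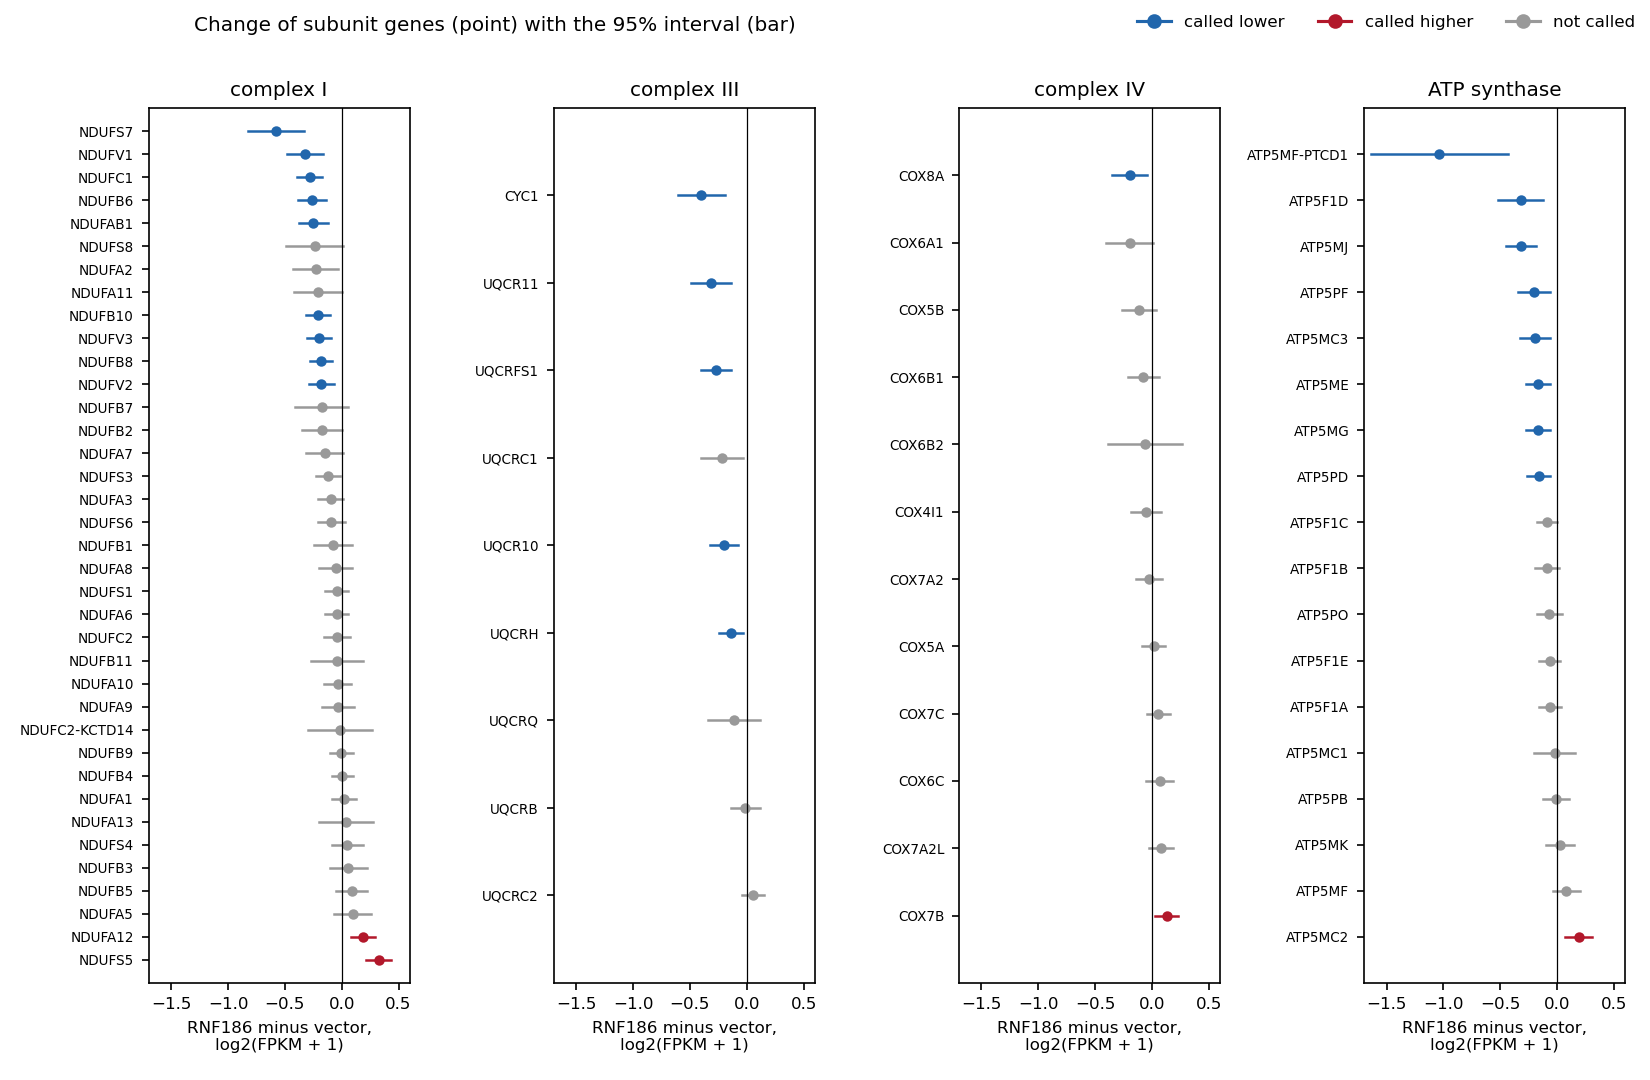
Change of tested subunit genes on the log2(FPKM + 1) scale, RNF186 minus vector (point), with the 95% interval from limma (bar), by complex. Blue genes were called lower, red genes higher and grey genes did not pass; 5 of the 9 genes of complex III are blue, and 10 of the 12 genes of complex IV are grey.

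These counts depend on single libraries and on the scaling. Leaving out 1 library gave 14 falls without replicate 1 of vector or 3 of RNF186, 15 without replicate 2 of vector or 1 of RNF186, 19 without vector replicate 3 and 33 without RNF186 replicate 2. The share lower was 18.2% without vector replicate 1 (13.3% of all tested genes) and 18.2% without RNF186 replicate 3 (12.3% of all). It was 19.5% without vector replicate 2 (12.7% of all) and 19.5% without RNF186 replicate 1 (12.9% of all). Without vector replicate 3 it was 24.7% (14.9% of all), and without RNF186 replicate 2 it was 42.9%. Without RNF186 replicate 2, 25.3% of all tested genes were called lower and 23.4% higher, 48.7% in all. The count over all tested genes moved as well, from 1435 without RNF186 replicate 3 to 2945 without RNF186 replicate 2. Rises were 1 without vector replicate 2, 2 without replicate 3 of vector or 3 of RNF186, and 3 to 5 without any other library. Scaling to TPM gave 15 falls and 5 rises among the subunit genes, and 13.8% lower and 23.6% higher (37.4% in all) among all tested genes, with the median of all genes at 0.04 and that of the subunit genes at -0.04. A correction for transcript length and GC content gave 31 falls and 4 rises, against 28.6% lower and 21.1% higher (49.7% in all) among the 11567 genes with both properties. Of the 23 falls, 12 kept their call in each of the 6 fits that left out 1 library, and 11 kept it also under each of the 10 other settings, and none of the 27 called genes changed sign in any of them.

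Complex I takes electrons from NADH through a matrix arm of 7 conserved core subunits encoded in the nucleus, which carry the flavin and the iron-sulfur clusters. Of these 7, NDUFS7 (Entrez 374291), NDUFV1 and NDUFV2 fell, and NDUFS1, NDUFS3 and NDUFS8 were among those that did not pass. NDUFS7, which holds the last cluster before ubiquinone, was at 26.4, 20.2 and 20.9 FPKM in vector and at 12.6, 16.4 and 15.2 FPKM in RNF186 libraries. No RNF186 library reached the lowest vector library. The mean went from 22.5 ± 3.39 to 14.8 ± 1.96 FPKM (SD, n = 3 dishes each), a log2 change of -0.57 (SE 0.11, limma, adjusted p = 0.00296), and of -0.42 with the length and GC correction. NDUFV1 (Entrez 4723), which binds NADH and the flavin, was at 89.6, 81.7 and 80.1 FPKM in vector and 62.8, 74.4 and 63.4 FPKM in RNF186 libraries, again without overlap. Its log2 change was -0.32 (SE 0.07, limma, adjusted p = 0.00576). The change of NDUFV2, another cluster-bearing subunit of the NADH-binding end, was -0.18, and its call ended without replicate 3 of vector or 3 of RNF186 (limma, adjusted p up to 0.0672) and with TPM scaling. NDUFS8 was at 37.5, 32.1 and 32 FPKM in vector and 24.3, 34.8 and 27.4 FPKM in RNF186 libraries. The groups overlapped through RNF186 replicate 2, and the change of -0.24 did not pass with all libraries (95% interval -0.49 to 0.01) but was -0.38 without that library (limma, adjusted p = 0.00189). NDUFS3, with all RNF186 libraries below vector, had a change of -0.12 that did not pass with all libraries and one of -0.15 that did without RNF186 replicate 2 (limma, adjusted p = 0.0156). NDUFS1 (-0.04) did not pass.

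Of the 31 accessory genes of complex I (readthrough NDUFC2-KCTD14 included), which surround the core, 6 fell, 2 rose and 23 were not called. Their median change was -0.04. The shares were 19.4% lower and 6.45% higher, against 18.9% lower and 19.9% higher over all tested genes. The share of falls was thus near that of all tested genes. NDUFC1 (Entrez 4717), a small membrane-arm subunit, was at 41.6, 41.3 and 39.6 FPKM in vector and 32.7, 35 and 32.7 FPKM in RNF186 libraries (log2 change -0.28, SE 0.05, limma, adjusted p = 0.0016). NDUFB6 (Entrez 4712), also of the membrane arm, was at 33.2, 32.6 and 34.1 FPKM in vector and 27.2, 29.6 and 26.2 FPKM in RNF186 libraries (log2 change -0.26, limma, adjusted p = 0.00486). In both, each group was tight and the groups stood apart. NDUFAB1, the mitochondrial acyl carrier protein, which also serves mitochondrial fatty acid synthesis, fell by 0.25 on the log2 scale, NDUFB10 by 0.21, NDUFV3 by 0.20 and NDUFB8 by 0.18. The call of NDUFB8 ended without vector replicate 2 (limma, adjusted p = 0.0536). Leaving out RNF186 replicate 2 added calls for NDUFA11 (-0.21 with all libraries, -0.33 without it), NDUFA2 (-0.23 and -0.31), NDUFB7 (-0.18 and -0.29) and NDUFB2 (-0.18 and -0.27), and for NDUFA5 as a rise (0.10 and 0.17). In these 5 genes the groups overlapped (limma, adjusted p 0.00125 to 0.0337 without that library).

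The largest rise was in the most abundant complex I gene. NDUFS5 (Entrez 4725), an accessory subunit of the intermembrane side, was at 206, 204 and 187 FPKM in vector and at 259, 244 and 244 FPKM in RNF186 libraries. The mean went from 199 ± 10.3 to 249 ± 8.45 FPKM without overlap (log2 change 0.32, SE 0.05, limma, adjusted p = 0.000887), and the call held in all alternative fits (adjusted p up to 0.00508). NDUFA12 (Entrez 55967), an accessory subunit of the matrix arm, was at 57.9, 58.3 and 61.7 FPKM in vector and 65.2, 69.2 and 68.4 FPKM in RNF186 libraries (log2 change 0.19, SE 0.05, limma, adjusted p = 0.0111). Its call ended without vector replicate 2 (limma, adjusted p = 0.0528). All 7 core genes and 22 of the 31 accessory genes had negative changes. Complex I as a whole had 8 to 10 falls when 1 library other than RNF186 replicate 2 was left out, and 15 without that one.

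**Figure D3:**
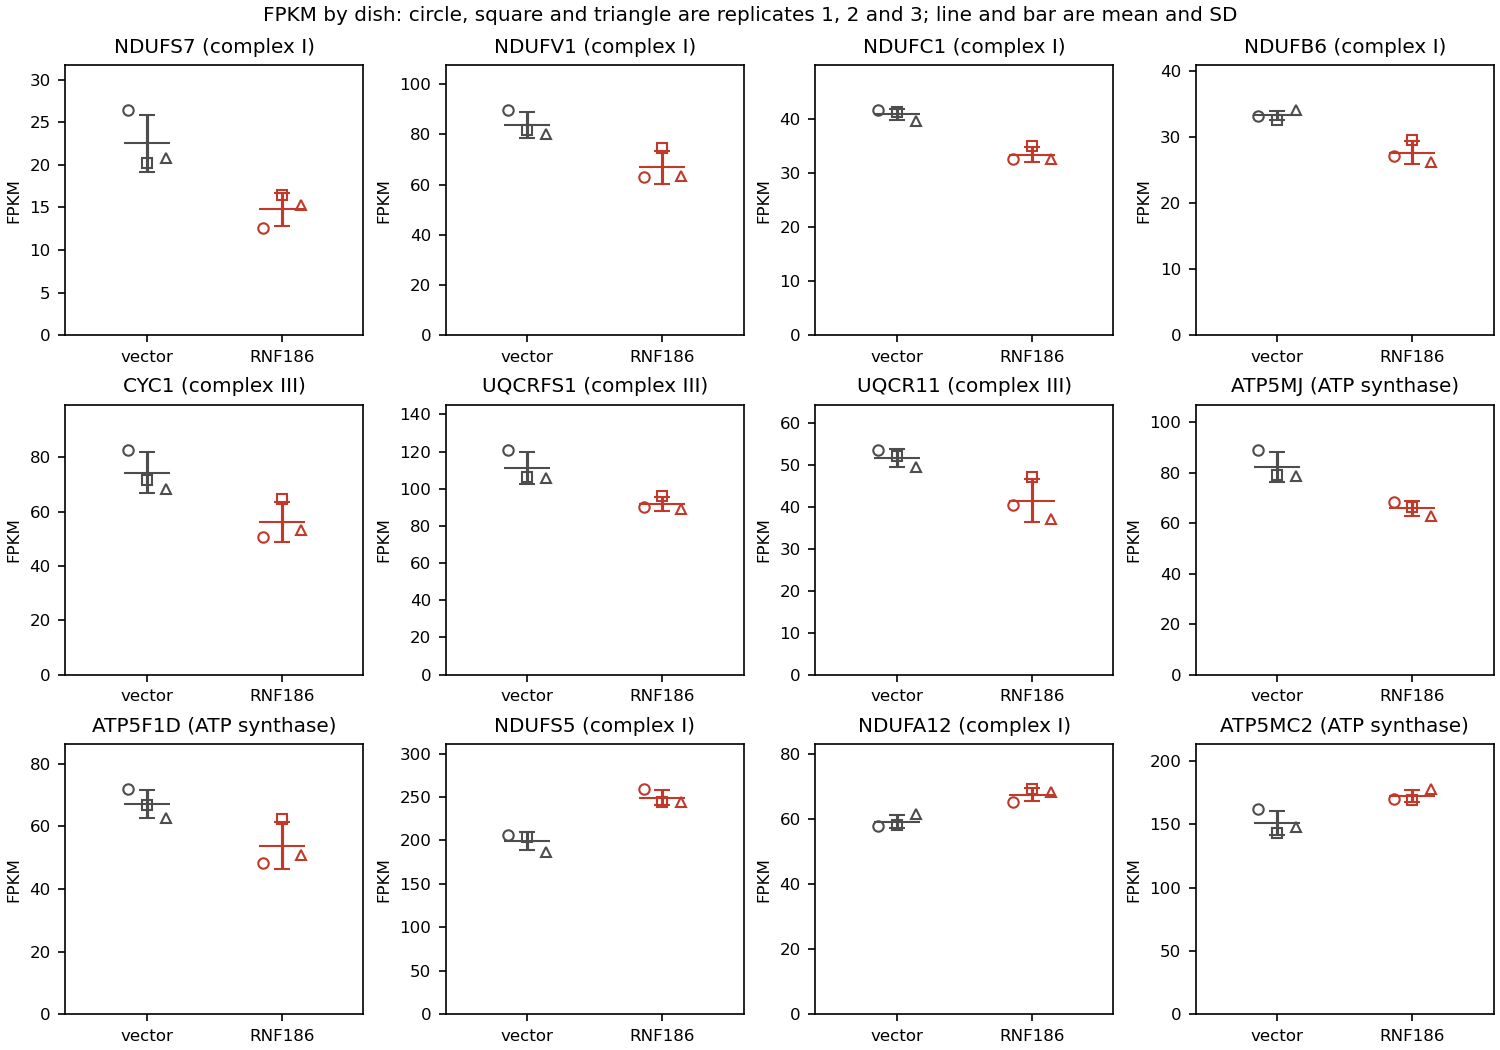
FPKM in each dish for 9 subunit genes that fell and 3 that rose (axes from 0), with circles, squares and triangles for replicates 1, 2 and 3 and the mean with SD. RNF186 replicate 2 (red square) is the highest RNF186 dish in 8 of the 9 falls, and the groups do not overlap in any panel.

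Complex III had the largest median change, -0.20, and its catalytic subunits encoded in the nucleus were among the falls. CYC1 (Entrez 1537), cytochrome c1, which hands electrons to cytochrome c, was at 82.7, 71.5 and 68.4 FPKM in vector and 50.7, 64.5 and 53.1 FPKM in RNF186 libraries. The groups did not overlap, and RNF186 replicate 2 lay nearest to vector. The log2 change was -0.40 (SE 0.09, limma, adjusted p = 0.00804), or -0.50 without RNF186 replicate 2. UQCRFS1 (Entrez 7386), the Rieske iron-sulfur protein, was at 121, 106 and 106 FPKM in vector and 90.3, 96 and 89.2 FPKM in RNF186 libraries (log2 change -0.27, SE 0.06, limma, adjusted p = 0.0057). The small subunit UQCR11 was at 53.7, 52.1 and 49.5 FPKM in vector and 40.4, 47.2 and 37.1 FPKM in RNF186 libraries (log2 change -0.32, SE 0.08, limma, adjusted p = 0.0105). All 3 of these calls held in every alternative fit. UQCR10 (-0.20) and the hinge protein UQCRH (-0.14) also fell. UQCRH, the highest gene of the complex, was at 280, 269 and 263 FPKM in vector and 233, 250 and 255 FPKM in RNF186 libraries, just short of overlap (limma, adjusted p = 0.044). UQCR10 lost its call without 4 of the 6 libraries (limma, adjusted p up to 0.0775), all but vector replicate 3 and RNF186 replicate 2. UQCRH lost it without any library but RNF186 replicate 2 (limma, adjusted p up to 0.184). The call of UQCRH also ended under 5 of the 10 other settings, among them TPM scaling and quantile normalization (limma, adjusted p = 0.136 and 0.189). Reads of the near-identical UQCRHL (mean 0.262 FPKM) cannot be told apart from those of UQCRH. The core proteins UQCRC1 (-0.22, 95% interval -0.40 to -0.04, adjusted p = 0.0579 from limma) and UQCRC2 (0.06, interval -0.04 to 0.15) did not pass, and neither did UQCRQ or UQCRB. Without RNF186 replicate 2, UQCRC1 (-0.32, limma, adjusted p = 0.00107) and UQCRQ (-0.25 against -0.11 with all libraries, adjusted p = 0.00629) were called lower. The count for complex III was 3 without replicate 1 or 2 of vector or 1 or 3 of RNF186, 4 without vector replicate 3 and 7 without RNF186 replicate 2. Summed over its 9 tested genes, complex III took 0.22 to 0.234% of the summed FPKM in vector and 0.203 to 0.218% in RNF186 libraries.

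Complex IV had a median change of -0.04, with 10 of 12 genes uncalled, and the remaining 2 called in opposite directions. COX8A, a small membrane subunit, was at 198, 203 and 185 FPKM in vector and 167, 190 and 156 FPKM in RNF186 libraries, with overlap through RNF186 replicate 2. Its change of -0.20 passed narrowly (limma, adjusted p = 0.0475) and did not pass without replicate 1 or 2 of vector or 1 or 3 of RNF186 (adjusted p 0.113 to 0.179) or under 5 of the 10 other settings, TPM scaling among them. With the length and GC correction it was -0.08 (limma, adjusted p = 0.176). COX7B was at 208, 192 and 198 FPKM in vector and 218, 215 and 222 FPKM in RNF186 libraries, without overlap. Its rise of 0.13 (limma, adjusted p = 0.0425) ended without replicate 2 or 3 of vector or 1 or 3 of RNF186 (adjusted p 0.108 to 0.177) and under 5 of the 10 other settings. The highest gene of the complex, COX7C, was at 453, 421 and 423 FPKM in vector and 443, 451 and 454 FPKM in RNF186 libraries, with a change of 0.06 (95% interval -0.04 to 0.16) that was 0.19 and called higher with quantile normalization (limma, adjusted p = 0.00385). COX4I1, the ubiquitous isoform of a subunit that regulates the complex, was at 318, 280 and 279 FPKM in vector and 266, 294 and 285 FPKM in RNF186 libraries (change -0.05, interval -0.19 to 0.08). COX6B1 was at 213, 188 and 188 FPKM in vector and 186, 197 and 176 FPKM in RNF186 libraries (change -0.08, interval -0.21 to 0.06). In COX7C, COX4I1 and COX6B1 the groups overlapped, as they did in COX7A2, COX7A2L and COX6A1, which follow. COX7A2 was at 152, 142 and 139 FPKM in vector and 136, 150 and 141 FPKM in RNF186 libraries (change -0.02, interval -0.14 to 0.09). COX7A2L, known for joining complexes III and IV into supercomplexes, was at 59.6, 55.3 and 57.9 FPKM in vector and 59.6, 62.7 and 60.6 FPKM in RNF186 libraries (change 0.08, interval -0.02 to 0.18), and it was called higher with TPM scaling (0.13, limma, adjusted p = 0.0493). COX6A1 was at 294, 247 and 243 FPKM in vector and 214, 261 and 211 FPKM in RNF186 libraries. Its groups overlapped through RNF186 replicate 2, with a change of -0.20 with all libraries and -0.29 without that library (limma, adjusted p = 0.00629). COX5B likewise had -0.12 with all libraries and -0.17 without it (limma, adjusted p = 0.0431). The count of falls in complex IV was 3 without RNF186 replicate 2, 1 without vector replicate 3 and 0 without any other library. COX7B2, a testis isoform, was listed at 0 in all vector libraries and at 0.36, 0.48 and 0.48 FPKM in RNF186 libraries, and was not tested.

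In the ATP synthase 8 of 18 genes fell, the readthrough ATP5MF-PTCD1 among them, and 1 rose, with a median change of -0.09. In the catalytic head, ATP5F1D (Entrez 513), the delta subunit of the central stalk, was at 71.8, 66.8 and 62.8 FPKM in vector and 48.4, 62.3 and 50.8 FPKM in RNF186 libraries. Its change of -0.32 (SE 0.09, limma, adjusted p = 0.0168) was -0.43 without RNF186 replicate 2 and -0.13 with the length and GC correction. The call ended without replicate 1 or 2 of vector or 1 or 3 of RNF186 (limma, adjusted p 0.0506 to 0.0655). It also ended with no filter on low values (limma, adjusted p = 0.0518). The alpha (ATP5F1A, -0.06), beta (ATP5F1B, -0.09), gamma (ATP5F1C, -0.09) and epsilon (ATP5F1E, -0.07) subunits did not pass, though in 3 of these 4 all RNF186 libraries lay below all vector libraries. ATP5F1B had a 95% interval from -0.19 to 0.01, and was called lower with the length and GC correction (-0.12, limma, adjusted p = 0.0264).

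The 3 genes of the c-ring, the rotor in the membrane, encode the same mature protein and did not move together. ATP5MC2 (Entrez 517) was at 162, 144 and 148 FPKM in vector and 170, 170 and 178 FPKM in RNF186 libraries (log2 change 0.19, SE 0.05, limma, adjusted p = 0.0181). The groups stood apart, but the call ended without replicate 2 or 3 of vector or 3 of RNF186 (limma, adjusted p 0.0636 to 0.0871). ATP5MC3 was at 102, 101 and 94.8 FPKM in vector and 83.3, 94.7 and 82.5 FPKM in RNF186 libraries, and RNF186 replicate 2 lay just below the lowest vector library. Its change of -0.19 (limma, adjusted p = 0.0288) did not pass without replicate 1 or 2 of vector or 1 or 3 of RNF186 (adjusted p 0.0899 to 0.111). The call also ended under 3 of the 10 other settings, TPM scaling among them (limma, adjusted p = 0.0595). ATP5MC1 was at 89.1, 79.3 and 77.9 FPKM in vector and 72.1, 91 and 80.2 FPKM in RNF186 libraries. The groups overlapped, and the change of -0.02 (95% interval -0.20 to 0.16) was above 0 with TPM scaling, after correction for length and GC content, and with quantile normalization. The sources used here do not say how reads common to similar genes were assigned.

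Among the small membrane subunits ATP5MJ (Entrez 9556), ATP5ME and ATP5MG fell and ATP5MF and ATP5MK did not pass. ATP5MJ, a short accessory subunit, was at 89.1, 79 and 78.8 FPKM in vector and 68.6, 66.4 and 62.8 FPKM in RNF186 libraries (log2 change -0.31, SE 0.06, limma, adjusted p = 0.00253). Here RNF186 replicate 2 lay between the other RNF186 libraries, and the call held in all alternative fits. The change of ATP5ME (-0.17) was -0.01 with the length and GC correction, and its call also ended without replicate 1 or 3 of vector or 1 of RNF186 (limma, adjusted p up to 0.0685). ATP5MG (-0.17) lost its call without replicate 1 or 2 of vector or 1 or 3 of RNF186 (adjusted p up to 0.0766), and both lost it with TPM scaling. Of the peripheral stalk, which holds the head still, ATP5PF (-0.20) and ATP5PD (-0.16) fell and ATP5PO (-0.07) and ATP5PB (-0.01) did not pass. The calls of ATP5PF and ATP5PD each ended without 4 of the 6 libraries (limma, adjusted p up to 0.114 and 0.074). Both also ended with TPM scaling (limma, adjusted p = 0.0864 and 0.0561), and that of ATP5PF under 5 of the 10 other settings in all. ATP5MF-PTCD1, a readthrough transcript of ATP5MF and its neighbour, was at 1.94, 1.61 and 3.43 FPKM in vector and 1.08, 0 and 0.9 FPKM in RNF186 libraries. Its fall (log2 change -1.03, limma, adjusted p = 0.0132) rests on low values, ended with no filter on low values (limma, adjusted p = 0.0506), and depends on how reads were shared with ATP5MF, which had a change of 0.08. The complex had 2 falls without replicate 1 of vector or 1 of RNF186, 3 without RNF186 replicate 3, 4 without vector replicate 2, 6 without vector replicate 3 and 8 without RNF186 replicate 2, while the correction for length and GC content gave 13. It took 0.716 to 0.733% of the summed FPKM in vector and 0.707 to 0.712% in RNF186 libraries. The groups overlapped for complex I, at 0.582 to 0.605% in vector and 0.586 to 0.599% in RNF186 libraries. They also overlapped for complex IV, at 0.552 to 0.592% in vector and 0.567 to 0.592% in RNF186 libraries. All 77 tested subunit genes together took 2.08 to 2.16% in vector and 2.07 to 2.12% in RNF186 libraries, again with overlap.

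**Figure D4:**
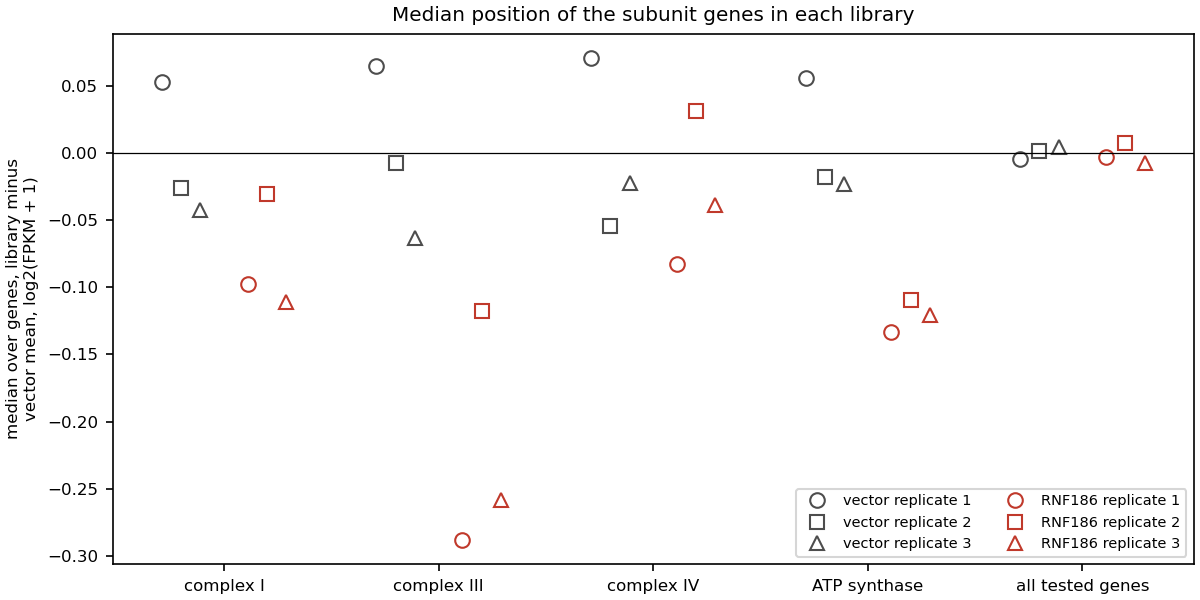
Median over the tested genes of each complex, and over all tested genes, of each library's log2(FPKM + 1) minus the vector mean, with a marker for each dish. The RNF186 dishes lie below the vector dishes in complex III and in the ATP synthase and overlap them in complexes I and IV, while all 6 dishes lie near 0 for all tested genes.

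Dishes of 1 group differed across many subunit genes at once. Vector replicate 1 was the highest vector library for 58 of the 77 genes (4128 of 11567 over all tested genes), and RNF186 replicate 2 the highest RNF186 library for 46 (4940 of 11567). The median position relative to the vector mean was 0.06, -0.03 and -0.04 in the vector libraries and -0.11, -0.03 and -0.12 in the RNF186 libraries, so RNF186 replicate 2 lay at the level of vector replicates 2 and 3. The deviations of RNF186 replicate 2 and of vector replicate 1 both followed base composition. Across the 77 genes the difference of RNF186 replicate 2 from the other RNF186 libraries had a Spearman correlation of 0.62 with the GC content of the transcripts, and 0.74 across 11567 tested genes. For vector replicate 1 against the other vector libraries the correlation was 0.49 across the 77 genes and 0.49 across all tested genes. The deviations of vector replicate 1 and RNF186 replicate 2 had a correlation of 0.47 with each other in both sets. Genes share libraries and are not independent, so these are descriptions. The change between groups had a correlation of -0.45 with GC content across the 77 genes and -0.29 across all tested genes. The 26 subunit genes with the highest GC content had a median change of -0.17, the 25 in the middle -0.07 and the 26 with the lowest -0.01, with 10, 6 and 7 falls. The subunit transcripts were short, with a median of 703 bases against 1785 over all tested genes, and had a median GC content of 50.5% against 49.7%. Once length and GC content were corrected for, ATP5ME (-0.01, limma, adjusted p = 0.814) and COX8A (-0.08, adjusted p = 0.176) lost their calls and ATP5F1D moved from -0.32 to -0.13, while the other falls stayed called.

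**Figure D5:**
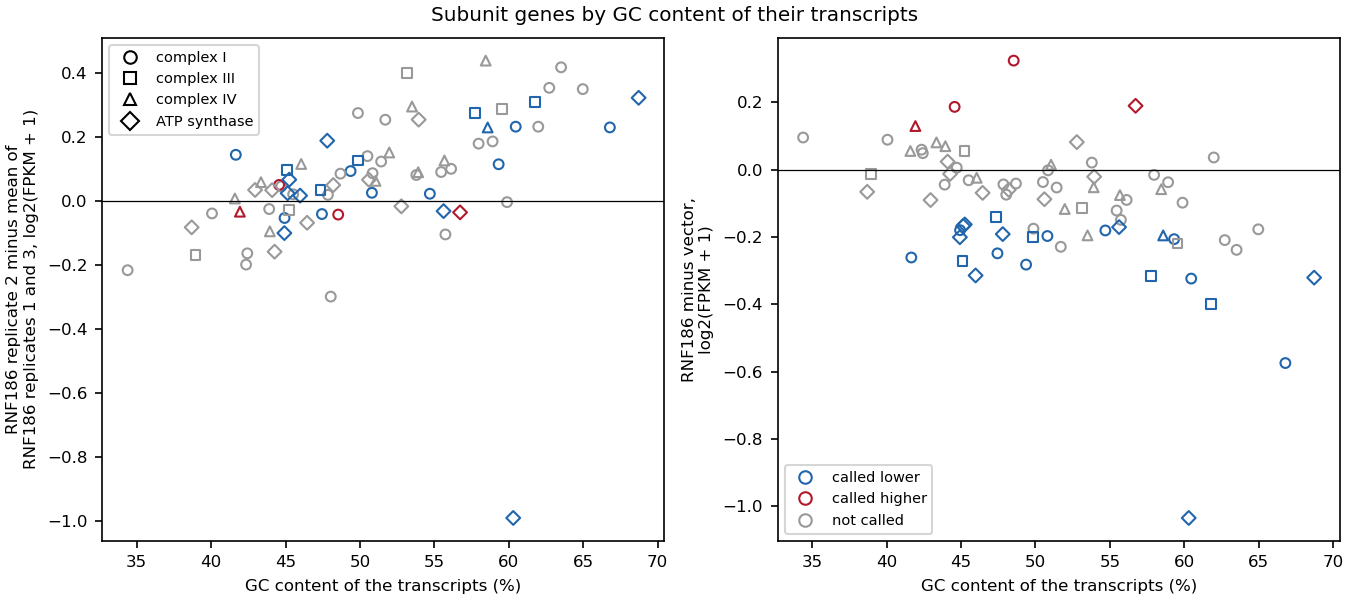
Each point is a subunit gene, with the GC content of its transcripts in percent on the x axis. On the left the deviation of RNF186 replicate 2 from the other RNF186 dishes rises with GC content (Spearman 0.62), and on the right the change between groups falls with it (-0.45).

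The other genes of the pathway were read from lists that were chosen with earlier results of these data known. Genes of the protein import machinery, which brings subunits through the mitochondrial membranes, were lower in 14 of 25 cases and higher in none. Their median change was -0.25. Over all tested genes 18.9% were lower and 19.9% higher, the shares for list counts given without a setting. Counts from other fits have other shares. These were 25.3% lower and 23.4% higher without RNF186 replicate 2, and 28.6% and 21.1% with the length and GC correction. They were 13.8% and 23.6% with TPM scaling, 19.5% and 18.3% with quantile normalization, and 28.3% and 26.5% with array weights. Leaving out any other library gave 12.3 to 14.9% lower and 14.8 to 17% higher. TIMM8B, a chaperone of the intermembrane space, went from 52.8 ± 3.27 to 36 ± 2.18 FPKM (log2 change -0.54, limma, adjusted p = 0.00012). TOMM7 of the outer membrane pore went from 86.5 ± 3.78 to 66.4 ± 0.728 FPKM and TIMM50 of the inner membrane translocase from 32.9 ± 1.04 to 24.1 ± 1.27 FPKM. TOMM5 (-0.05) and the receptor TOMM20 (0.05) did not pass. The count was 12 to 14 when any 1 library was left out.

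Of 17 assembly factors of complex I 4 fell, a share near that of all tested genes (4 fell and 2 rose without RNF186 replicate 2), with NDUFAF8 (-0.47), NDUFAF3 (-0.49) and ACAD9 (-0.24) in front, while COA1 (-0.06) and TMEM126B (0.10) did not pass. Of 9 for complex III 4 fell, with UQCC4 from 15 ± 0.211 to 9.85 ± 0.768 FPKM, UQCC3 from 14 ± 0.953 to 8.91 ± 1.14 FPKM and BCS1L, which inserts the Rieske protein, from 14.6 ± 0.938 to 11.7 ± 0.943 FPKM, while TTC19 (-0.04) and UQCC5 (-0.10) did not pass. Across the other settings the count for complex III assembly ran from 3 to 6, with 6 without RNF186 replicate 2. Of 26 for complex IV 7 fell and 1 rose. The falls numbered 5 without RNF186 replicate 1 or 3, 9 without RNF186 replicate 2 and 12 (with 1 rise) with the length and GC correction. The rise was PET100, from 37.3 ± 1.07 to 50.6 ± 1.75 FPKM (log2 change 0.43, limma, adjusted p = 0.0001), and COA3 (-0.42) and COX11 (-0.24), which delivers copper, led the falls, while the copper chaperone COX17 (0.04) and COX20 (0.06) did not pass. ATPAF1, an assembly factor of the ATP synthase head, rose (0.36), and none of the other 5 genes of that list passed (2 fell without RNF186 replicate 2), among them the inhibitor ATP5IF1 (-0.12) and TMEM70 (-0.02). In complex II and its assembly, 4 of 8 fell. That list gave 3 falls and 2 rises with TPM scaling, 3 and 1 with quantile normalization, and 4 and 2 with array weights. SDHAF3 (-0.50), SDHAF4 (-0.48) and SDHAF1 (-0.38), all assembly factors, had the smallest p, while the subunits SDHA (-0.05) and SDHD (0.01) did not pass.

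Of 17 regulators of respiratory genes and of mitochondrial DNA 7 fell and 1 rose, with a median of -0.16, or 4 and 0 without RNF186 replicate 3, 9 and 1 without RNF186 replicate 2, and 11 and 0 with the length and GC correction. The helicase TWNK (-0.33), the DNA polymerase POLG (-0.29) and the coactivator PPRC1 (-0.21) fell, while TFAM (-0.04), which packages mitochondrial DNA, and the RNA polymerase POLRMT (-0.18) did not pass. Of 17 genes of mobile electron carriers 4 fell and 3 rose, shares near those of all tested genes. COQ10A (0.55) rose and PDSS1 (-0.31) and ETFA (-0.16) fell, the latter pair without a call when vector replicate 2 was left out (limma, adjusted p = 0.0536 and 0.0799), and cytochrome c itself (CYCS, -0.10) and COQ9 (0.01) did not pass. The list gave 1 fall and 1 rise without replicate 1 of vector or 1 or 3 of RNF186, 2 and 1 without vector replicate 2 or 3, 6 and 3 without RNF186 replicate 2, and 8 and 3 with the length and GC correction. PDSS1 was also uncalled once vector replicate 1 was left out (limma, 0.0521), and ETFA without RNF186 replicate 1 or 3 (limma, 0.0501 and 0.0711) and with TPM scaling.

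Markers of mitochondrial content went both ways, with 4 of 12 lower and 2 higher. The outer membrane channel VDAC3 rose from 129 ± 4.8 to 172 ± 3.58 FPKM (log2 change 0.41, limma, adjusted p = 8.07e-05), and the chaperonin HSPD1 (-0.31) and the prohibitin PHB2 (-0.30) fell. VDAC2 (-0.02) and citrate synthase CS (-0.08) did not pass. The falls numbered 2 without replicate 1 or 2 of vector or 1 or 3 of RNF186 and with TPM scaling, 5 without RNF186 replicate 2 and 7 with the length and GC correction. The 13 protein genes of mitochondrial DNA were not analysed here. Of the NDUFA4 family, COXFA4, a subunit now assigned to complex IV, rose from 54.4 ± 3.35 to 64.7 ± 3.82 FPKM (log2 change 0.25, limma, adjusted p = 0.0094), without a call after the length and GC correction (0.15, adjusted p = 0.118 from limma). COXFA4L2, its hypoxia-inducible relative, was at 5.96, 6.54 and 6.42 FPKM in vector and 0.57, 0.41 and 0.67 FPKM in RNF186 libraries, without overlap (log2 change -2.24, limma, adjusted p = 5.22e-08).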

How the data were processed

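RNA libraries of 3 vector and 3 RNF186 cultures were made from total RNA (TruSeq kit, as the labels' protocols state). FPKM with 2 decimals were deposited by the authors. The submitters' processing notes name Bowtie 0.12.2 and the mouse builds mm8 and mm9. The gene identifiers are human, so no coordinates from the files' build are given, and those of promoter windows are RefSeq's. The counter and annotation are not given in the sources used here, and without counts the depth is unknown.

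Of 19485 rows, 1 named no gene and 1921 had no value. Symbols came from the RefSeq table of GRCh38.p14, which named 17524 of 17563 rows with values. Values were analysed as log2(FPKM + 1), which understates changes of low genes, for the 11632 genes averaging 1 FPKM or more, with limma 3.58.1 in R 4.3.3 (mean-variance trend, two-sided, no covariates, 95% intervals). Benjamini-Hochberg adjustment ran over every tested gene, with a threshold of 0.05. With 3 dishes a group, the smallest p of an exact permutation test is 0.1. Transcript length and GC content are medians over GENCODE release 29 transcripts, for 99.4% of tested genes.

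The members and lists were chosen with earlier results of these data known. Role groups and promoter cores were chosen after the values were seen. Genes given in every library are the 10 largest falls and 4 largest rises without overlap, the highest gene and the smallest p of each complex, isoforms, and NDUFS8 (chosen after its values were seen). Of each pathway list, up to 3 called genes with the smallest p and 2 uncalled genes with the highest level are named. Counts and medians cover all tested genes, but the values of 1 subunit gene, left out of the plots of single genes, and of 1 marker are not reported here.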

Additional observations from a re-analysis of the deposited data

How the results depend on the processing

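Direction was stable for the called genes, and the counts were not. Complex IV had 0 falls with no filter on low values, TPM scaling, quantile normalization, the length and GC correction or no variance trend, and 2 with array weights. The ATP synthase had 4 falls with no filter, 3 with TPM scaling and 13 with the length and GC correction, and 15 subunit genes in all fell with TPM scaling. Array weights gave 15 falls in complex I and 7 rises in all. They called 28.3% of all tested genes lower and 26.5% higher, against 42.9% and 9.09% of the subunit genes. Of all tested genes, 11.2% were called lower with no filter, 19.5% with quantile normalization and 17.4% with no variance trend. Over all tested genes the falls numbered 3305 with the length and GC correction. When 1 library was left out, falls ran from 14 to 33 in all, 8 to 15 in complex I, 3 to 7 in complex III, 0 to 3 in complex IV and 2 to 8 in the ATP synthase, rises from 1 to 5, and falls over all tested genes from 1435 to 2945. The causes were not tested. The median change of the subunit genes stayed between -0.11 and -0.04.

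Among uncalled genes, the sign was followed across settings only for isoforms and the highest gene of each complex. Of these, changes crossed 0 for ATP5MC1 (0.028 with TPM scaling, 0.025 with quantile normalization, 0.0435 with the length and GC correction, -0.106 to 0.0592 with 1 library left out), COX4I1 (0.0415 with quantile normalization, -0.0849 to 0.0091 with 1 left out), COX6B1 (0.021 with the length and GC correction), COX6B2 (-0.205 to 0.0635 with 1 left out) and COX7A2 (0.0251 with TPM scaling, 0.0103 with the length and GC correction, -0.063 to 0.013 with 1 left out). The other uncalled genes were not followed in this way.

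Same-numbered dishes did not deviate together (correlations -0.27, -0.07 and 0.26 across genes), and vector replicate 1 correlated best with RNF186 replicate 2 (0.39). With the replicate number as a block 22 subunit genes fell and 3 rose, and COX7B (limma, adjusted p = 0.0794) and UQCRH (0.0871) lost their calls. Over all tested genes that block called 17.1% lower and 17.6% higher. Without counts, the depth behind low values such as those of ATP5MF-PTCD1 is unknown.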
